A study of Mus musculus with 44 samples.

Results

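The comparison described here asked whether the change in nuclear RNA between control livers and livers with advanced disease differed between hepatocyte nuclei and all nuclei of the same livers. It compares 14 of the 44 libraries of the series, chosen by diet, disease group and nuclear fraction alone, while the 8 libraries of mild FPC mice entered the same fit for its filter, scaling and estimate of the spread. It covered every gene that passed the filter on low counts. The mice were male HEP-INTACT animals, whose hepatocyte nuclei are tagged so that they can be pulled out of a liver homogenate. The 3 advanced mice had eaten the FPC diet for 20 weeks and the 4 control mice a low-fat diet for the same 20 weeks. Each of the 7 mice gave 1 library from immunoprecipitated hepatocyte nuclei and another from all liver nuclei, so the tag is shared by every group. Strain, age at the start and the promoter behind the tag are not given in the sources used here, and the advanced group was picked among the diet-fed mice by liver histology for its fibrosis, not by random allocation. Mice are numbered here within a group in the order of their animal numbers.

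The value reported for each gene is an interaction: the log2 fold change from control to advanced in hepatocyte nuclei minus the same fold change in whole liver nuclei. A positive interaction means that the hepatocyte to whole liver ratio of a gene was larger in the advanced than in the control mice. On this log scale a gene that hepatocytes alone express would change equally in both fractions, apart from a shift in the hepatocytes' share of liver RNA, and so would a gene whose RNA reached the hepatocyte libraries only as a constant share of the whole liver level. As background, hepatocytes hold most of the RNA of a healthy liver, while in steatohepatitis the organ gains inflammatory, fibrogenic and ductular cells, and injured hepatocytes switch on genes that healthy liver reads mainly in bile duct, stellate or other non-parenchymal cells. Whole liver RNA sums all of these cells, so in that fraction fewer cells of a type and less RNA per cell cannot be told apart.

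The 14 libraries held 16.8 to 32.0 M counts (median 23.9 M). The labelled fraction was checked with 18 endothelial markers, which hepatocytes lack: their level in hepatocyte nuclei was 8.44 to 10.3% of the whole liver level in the control mice and 7.81 to 11.7% in the advanced mice, so the share of endothelial RNA overlapped between the groups compared. The 22 hepatocyte markers had slightly higher levels in hepatocyte than in whole liver nuclei, with a median log2 ratio of 0.16 to 0.23 in the control and 0.40 to 0.46 in the advanced mice. No library stood apart from its group in these measures.

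Of 14333 genes tested, 406 changed more positively in hepatocyte nuclei than in whole liver nuclei (2.83% of genes tested) and 141 changed more negatively (0.984%), at an adjusted p under 0.05 in edgeR's quasi-likelihood test. The median interaction over all genes tested was -0.00, and 394 of the higher and 106 of the lower genes differed by at least 2-fold. With the mouse as a block, which uses the pairing of both libraries of an animal, 878 genes were higher (6.13%) and 477 lower (3.33%). That fit kept 405 of the 406 and 140 of the 141 genes. The 14 libraries fitted alone gave 383 and 146, with 357 of the 406 and 119 of the 141 genes among them. The 2 directions were built differently. Of the 406 higher genes, 384 rose in both fractions, more so in hepatocyte nuclei, and 21 rose in hepatocyte nuclei while the whole liver change did not pass the test. For the remaining gene the hepatocyte change did not pass and the whole liver level fell. Of the 141 lower genes, 58 rose in whole liver nuclei with no call in hepatocyte nuclei and 27 rose in both fractions. A further 25 fell in hepatocyte nuclei with no call in whole liver, 22 fell in hepatocyte nuclei while they rose in whole liver, and 9 fell in both. These counts can be read against the single-fraction changes, which share their libraries with the interaction: 28.4% of genes tested rose and 23.7% fell in hepatocyte nuclei, and 33.6% rose and 21.7% fell in whole liver nuclei.

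**Figure D1:**
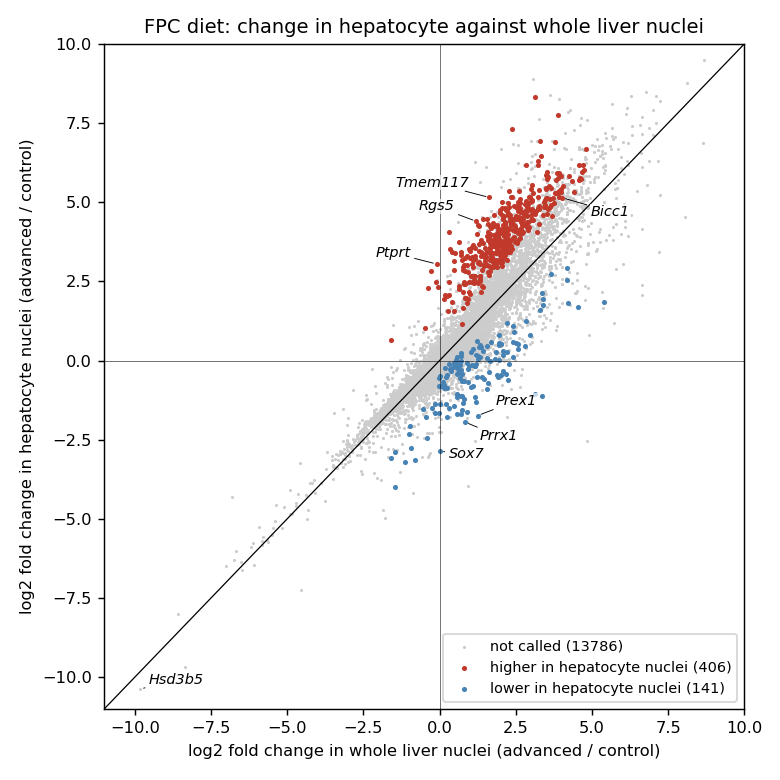
Log2 fold change from control to advanced FPC mice in hepatocyte nuclei (vertical axis) against whole liver nuclei (horizontal axis), 1 point a gene, with the 406 higher genes in red, the 141 lower genes in blue and equal change on the diagonal. Most red points lie at the upper right above the diagonal, where 384 genes rose in both fractions, while blue points spread to both sides of no change in hepatocyte nuclei.

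In the control mice the higher genes were mostly depleted from hepatocyte nuclei, and in the advanced mice they were close to parity. The median over the 406 genes of the log2 hepatocyte to whole liver ratio was -2.26 in controls, a hepatocyte level of 20.8% of the whole liver level, and -0.38 (77.0%) in advanced mice. Mouse by mouse this median ran from -2.30 to -2.21 in the 4 controls and from -0.65 to -0.22 in the 3 advanced mice. The 141 lower genes ran the other way, from near parity in controls (median -0.19, 87.5%) to depletion in advanced mice (median -1.85, 27.7%). Over all 14333 genes the medians were 0.10 and 0.07. These ratios describe the genes the test picked and are no second test. The per-mouse ratios of control and advanced mice did not overlap for 402 of the 406 and 140 of the 141 genes, against 3047 (21.3%) of all genes tested. The upper quartile of the control ratios of the higher genes was -1.60.

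**Figure D2:**
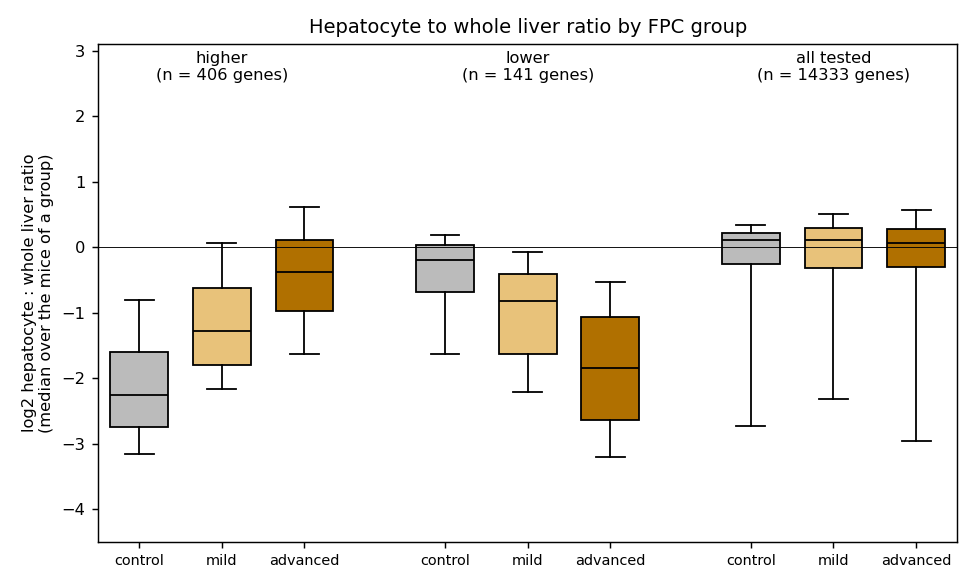
Log2 ratio of the hepatocyte to the whole liver level, as the median over the mice of a group, for the higher genes, the lower genes and all genes tested, in control, mild and advanced FPC mice (boxes are quartiles over genes, lines medians, whiskers the 5th and 95th percentiles). The higher genes move from a median of -2.26 in controls to -0.38 in advanced mice, the lower genes from -0.19 to -1.85, and all genes stay near 0.

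The clearest cases among the higher genes were genes whose whole liver level did not change. Ptprt (chr2:161521988-162661147), a receptor-type protein tyrosine phosphatase, had 1.80, 1.90, 3.24 and 3.96 CPM (counts scaled to a common library total) in the hepatocyte nuclei of the 4 controls and 16.2, 23.3 and 28.2 CPM in the 3 advanced mice. In whole liver nuclei it had 12.9, 13.2, 19.3 and 21.6 CPM in controls and 9.98, 18.3 and 18.9 CPM in advanced mice. The hepatocyte groups were far apart and the whole liver groups overlapped. The log2 change was 3.05 ± 0.31 (SE) in hepatocyte nuclei and -0.09 ± 0.29 in whole liver nuclei, an interaction of 3.14 ± 0.42 (adjusted p = 0.000107). Ttll7, a tubulin polyglutamylase, was built the same way, with 3.53 in hepatocyte and 0.34 in whole liver nuclei (interaction 3.18 ± 0.39, adjusted p = 4.29e-05).

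Bmp6 (chr13:38345716-38499728), a bone morphogenetic protein known as the endothelial signal that sets hepatocyte hepcidin, was named after its values were seen. Its hepatocyte nuclei held 5.8, 6.93, 10.1 and 12 CPM in controls and 53.2, 54.8 and 79.7 CPM in advanced mice. Whole liver nuclei held 63.7, 69.1, 76.6 and 109 CPM in controls and 59.7, 67.6 and 70.4 CPM in advanced mice. So the hepatocyte level rose from a level well below that of whole liver to near parity, while the whole liver groups overlapped (interaction 3.12 ± 0.30, adjusted p = 3.22e-06).

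Rgs5 (chr1:169655501-169693526), a regulator of G-protein signalling known as a pericyte and stellate cell gene, rose in both fractions. Its hepatocyte nuclei went from 0.618, 0.655, 0.741 and 0.862 CPM in controls to 13.7, 14.6 and 17.3 CPM in advanced mice. Whole liver nuclei went from 5.07, 5.35, 6.42 and 7.29 CPM to 12.1, 13.2 and 16.4 CPM. Both pairs of groups were separate, but the rise was 4.40 on the log2 scale in hepatocyte and 1.21 in whole liver nuclei (interaction 3.19 ± 0.29, adjusted p = 2.27e-06). The other 13 stellate cell markers tested were not called in either direction, and 11 of the 14 stellate markers had a negative interaction, with a median of -0.48. Lama4 (chr10:38965515-39110188), a laminin chain of basement membranes and also named after its values were seen, went from a mean of 5.99 ± 1.07 (SD, n = 4) to 114 ± 8.44 CPM (n = 3) in hepatocyte nuclei and from 49.4 ± 10.6 to 122 ± 4.95 CPM in whole liver nuclei (interaction 2.95 ± 0.22, adjusted p = 1.56e-07).

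Several other genes with large positive interactions had low control levels in hepatocyte nuclei. Tmem117, a membrane protein, went from 0.649 to 0.950 CPM in controls to 15.9 to 51.2 CPM in advanced hepatocyte nuclei, with advanced mouse 2 the highest (interaction 3.51 ± 0.62, adjusted p = 0.00122). Fam167a had an interaction of 3.76 ± 0.77, Fam174b of 3.12 ± 0.35 and Adcy8, a calcium-stimulated adenylyl cyclase, of 3.14 ± 0.63 (adjusted p = 0.00476, 1.37e-05 and 0.0039). In Clca3a2, Cbr3 and Gabrp the 4 control hepatocyte libraries together held 1, 1 and 3 counts, so no fitted fold is given for them. Against 293, 166 and 236 counts in the 3 advanced libraries, the ratios scaled for depth were 296 (95% interval from counting error 52.7 to 11730), 168 (29.7 to 6665) and 79.5 (26.9 to 388). Their interactions passed the test (adjusted p = 0.026, 0.0272 and 0.0313), but each of these calls was lost when any of several single mice was left out, with adjusted p up to 0.141, 0.148 and 0.152. Without advanced mouse 2 the values were 0.0552, 0.0506 and 0.0506. Without control mouse 1 they were 0.0575, 0.0983 and 0.0753, without control mouse 2 they were 0.141, 0.127 and 0.0813, and without control mouse 3 they were 0.0946, 0.148 and 0.152. Clca3a2 and Gabrp were also lost without control mouse 4 (0.0859 and 0.116), and Gabrp without advanced mouse 3 (0.0721). Clca3a2 was lost with the endothelial share subtracted (0.0658) and Cbr3 in the fit of the 14 libraries alone (0.0512).

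Rbms3 (chr9:116572747-117629913), an RNA-binding protein gene, was among the called genes with the largest CPM, a value that also grows with gene length. It rose from 29.8, 39.5, 46.0 and 46.1 CPM to 479, 546 and 632 CPM in hepatocyte nuclei and from 192, 208, 237 and 250 to 733, 742 and 771 CPM in whole liver nuclei. All groups were separate, and the hepatocyte rise was the larger (3.78 against 1.75 on the log2 scale, interaction 2.02 ± 0.21, adjusted p = 4.66e-06).

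**Figure D3:**
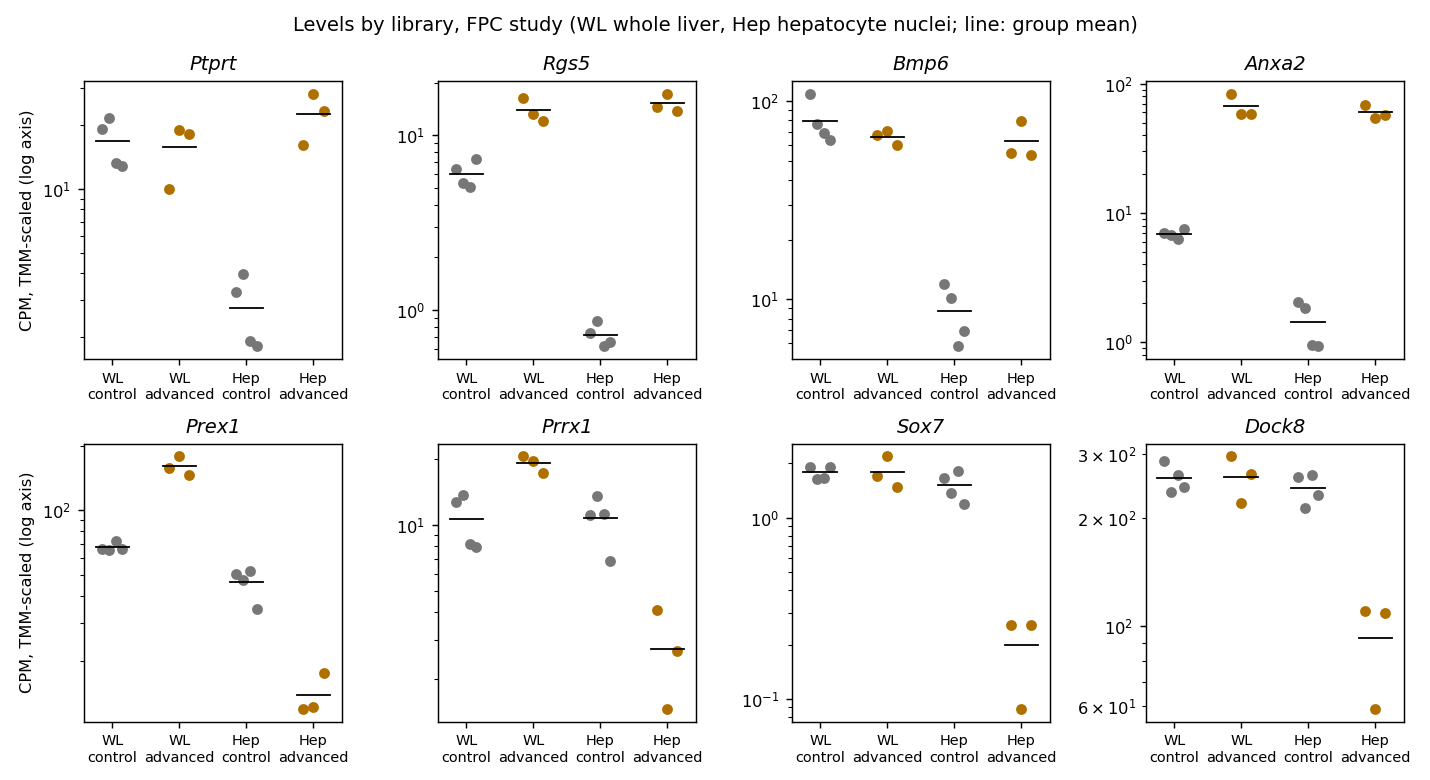
CPM by library on log axes for 4 higher genes (Ptprt, Rgs5, Bmp6, Anxa2) and 4 lower genes (Prex1, Prrx1, Sox7, Dock8) in whole liver (WL) and hepatocyte (Hep) nuclei, control mice in grey and advanced mice in orange, with the group mean as a line. For Ptprt and Bmp6 the whole liver groups overlap while the advanced hepatocyte libraries lie above all controls, and for Sox7 and Dock8 the whole liver groups overlap while the advanced hepatocyte libraries lie below all controls.

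Genes of bile ducts and of liver progenitors rose in both fractions, and more of them were higher than lower in the interaction. All 12 cholangiocyte markers rose in hepatocyte nuclei (median log2 change 5.03, against 28.4% of all genes that rose) and in whole liver nuclei (3.96, against 33.6%). Their interactions were all positive with a median of 1.20. Of the 12, 3 were called higher, where 2.83% of all genes were, and 6 with the mouse as a block, where 6.13% were. Bicc1 (chr10:70925096-71159634), an RNA-binding protein of renal and biliary tubules, had 19.2, 20.1, 23.3 and 26.8 CPM in control and 625, 825 and 921 CPM in advanced hepatocyte nuclei. Whole liver nuclei had 37.0, 40.8, 42.5 and 48.6 CPM in control and 585, 715 and 753 CPM in advanced mice. The hepatocyte level lay below the whole liver level in all 4 controls and above it in all 3 advanced mice (interaction 1.13 ± 0.23, adjusted p = 0.00443). Glis3, a zinc finger factor of bile duct and pancreas, crossed over in the same way, from a mean of 22.8 ± 4.26 to 975 ± 208 CPM in hepatocyte and from 40.8 ± 2.64 to 649 ± 109 CPM in whole liver nuclei (interaction 1.43 ± 0.23, adjusted p = 0.00057). Another call was Tspan8, a tetraspanin (1.26 ± 0.34, adjusted p = 0.041).

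The remaining cholangiocyte markers did not pass. The chloride channel gene Cftr missed the threshold (1.69 ± 0.48, adjusted p = 0.0524) and passed with the block (adjusted p = 0.0063). Pkhd1, the fibrocystin gene, had 0.56 ± 0.21 (adjusted p = 0.226) and was also called with the block (0.0018). Spp1 (osteopontin) had 1.09, 1.81, 2.28 and 2.59 CPM in control and 50.8, 54.0 and 64.9 CPM in advanced hepatocyte nuclei. In whole liver nuclei it had 3.44, 4.04, 5.39 and 5.82 CPM in control and 60.6, 65.3 and 99.6 CPM in advanced mice, and its ratios overlapped between the groups (0.87 ± 0.35, adjusted p = 0.287). The duct keratin gene Krt19 (1.18, adjusted p = 0.627), Epcam (1.54, adjusted p = 0.677) and Sox9 (0.08, adjusted p = 1.0) had no call. Ggt1 was at 0 in the 4 control hepatocyte libraries and was also not called. The summed level of the 12 markers was 553 to 608 CPM in control and 4000 to 5590 CPM in advanced hepatocyte nuclei, against 516 to 556 and 2680 to 3460 CPM in whole liver nuclei. Bicc1 and Glis3 had means of 22.4 and 22.8 CPM in control hepatocyte nuclei, so most of the control sum came from others of the 12. The median log2 hepatocyte to whole liver ratio of the 12 was -0.89 to -0.48 in control and 0.04 to 0.58 in advanced mice. The part of this summed level in the other results was not tested.

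Of 18 fetal and progenitor-associated genes tested, 5 were higher and none lower (2.83% and 0.984% of all genes), with a median interaction of 0.76 (0.49 with Cldn4, at 0 in control hepatocyte nuclei, set at its bound). With the block 8 were higher and 1 lower (6.13% and 3.33% of all genes). Anxa2 (chr9:69453683-69491785), a calcium-dependent membrane-binding protein, had 0.928, 0.950, 1.84 and 2.04 CPM in control and 54.4, 57.0 and 69.0 CPM in advanced hepatocyte nuclei. Whole liver nuclei had 6.33 to 7.56 CPM in control and 58.6 to 83.9 CPM in advanced mice, so that the ratio reached parity only in disease (interaction 2.10 ± 0.32, adjusted p = 0.000289). Its relative Anxa3 had an interaction of 2.04 ± 0.28 (adjusted p = 0.000119). Gpc3, the glypican of fetal liver, Lama5, a laminin chain, and Itga2, a collagen-binding integrin subunit, were the other 3 (2.12, 2.0 and 1.89, adjusted p = 0.00128, 0.0308 and 0.0265). Cd44, a hyaluronan receptor, had 1.63 ± 0.49 (adjusted p = 0.0731, and 0.00017 with the block). The gene called lower with the block was Anxa1 (-1.91 ± 0.56, adjusted p = 0.067, and 0.015 with the block).

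Targets of YAP, the transcriptional co-activator that acts through TEAD factors, gave 3 higher and no lower genes of 16 tested (2.83% and 0.984% of all genes), with a median of 0.34, and 6 higher with the block (6.13% of all genes). Ptpn14 (chr1:189728268-189876693), a phosphatase that binds YAP, had 2.57, 3.33, 3.71 and 4.08 CPM in control and 79.8, 101 and 151 CPM in advanced hepatocyte nuclei. Its whole liver nuclei had 14.4, 16.3, 17.0 and 18.0 CPM in control and 86.6, 94.2 and 115 CPM in advanced mice. The log2 rise was 5.02 in hepatocyte and 2.59 in whole liver nuclei (interaction 2.43 ± 0.26, adjusted p = 8.21e-06). Amotl1, an angiomotin-like YAP partner, rose by 3.02 and 0.91 (interaction 2.10 ± 0.26, adjusted p = 4.31e-05). Arhgef17, a guanine nucleotide exchange factor, had an interaction of 2.06 ± 0.33 (adjusted p = 0.000484).

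The letters that TEAD factors bind, GGAATG on either strand, occur in 14.7% of all 27025 mouse RefSeq promoters (GRCm38.p6, 250 bases before to 50 after a start). They were searched in the promoter of Ptpn14, the higher YAP target with the lowest p, and of Prrx1, a mesenchymal homeobox gene described below as lower, to show 1 promoter for each direction. Each window holds the motif once, with its first base at -146 (Ptpn14) and -180 (Prrx1) from the start. The windows are chr1:189728018-189728317 on the plus strand and chr1:163313601-163313900 on the minus strand, with the motif in capitals, as CATTCC where it lies on the other strand. The Prrx1 start used (163313650) lies inside the gene span given below for Prrx1, so other starts of that gene were not searched. A match is a description of these letters and shows no binding.
Ptpn14: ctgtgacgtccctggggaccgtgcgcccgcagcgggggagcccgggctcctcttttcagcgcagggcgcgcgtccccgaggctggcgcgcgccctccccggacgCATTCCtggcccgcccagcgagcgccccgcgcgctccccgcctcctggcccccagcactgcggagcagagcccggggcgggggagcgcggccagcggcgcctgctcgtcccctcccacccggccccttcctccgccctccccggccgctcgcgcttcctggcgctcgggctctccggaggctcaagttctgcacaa
Prrx1: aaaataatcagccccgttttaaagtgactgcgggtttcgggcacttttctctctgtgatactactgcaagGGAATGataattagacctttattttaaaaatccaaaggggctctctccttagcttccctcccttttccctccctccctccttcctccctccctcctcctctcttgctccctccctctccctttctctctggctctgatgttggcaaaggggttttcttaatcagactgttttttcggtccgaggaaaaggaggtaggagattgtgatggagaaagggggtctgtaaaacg
A promoter entry was matched for 76.8% of the higher, 75.9% of the lower and 76.7% of all genes tested. Of the matched genes 11.9%, 15.9% and 12.3% held the motif. Whether these shares differ was not tested.

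In 5 further lists 1 or 2 genes were called higher and none lower, against 2.83% and 0.984% of all genes, and 1 call in a list of 16 to 22 genes is near that share. With the block the calls were 2 higher for NF-kB, 4 higher for NRF2, 2 higher and 1 lower for Notch, 1 higher and 2 lower for the interferon list, and 3 higher and 1 lower for lipid droplets and uptake. That fit called 6.13% of all genes higher and 3.33% lower. Among 17 NF-kB targets, Relb, an NF-kB subunit, and Vcam1, an adhesion molecule, were higher (1.61 ± 0.27 and 1.60 ± 0.43, adjusted p = 0.000768 and 0.0411), although the call of Vcam1 was lost when any of the 7 mice was left out (adjusted p 0.0629 to 0.14). Among 14 NRF2 targets they were Cbr3, described above, and Abcc4, an efflux transporter (2.13 ± 0.55, adjusted p = 0.0299). The call of Abcc4 was lost without advanced mouse 2 or 3 (0.0788 and 0.112) and without control mouse 2, 3 or 4 (0.0615, 0.0709 and 0.0953), and in the fit of the 14 libraries alone (0.151). With the block the adjusted p was 1.36e-05 for Abcc4 and 0.00121 for Vcam1. In the Notch pathway Maml2, a mastermind co-activator, was the only call of 16 genes (1.97 ± 0.35, adjusted p = 0.00124), while Rbpj, the DNA-binding factor of the pathway, had -0.49 (adjusted p = 0.0725, and 0.0285 with the block). Of 22 interferon response and antigen presentation genes only Ifit2 was called (1.96 ± 0.38, adjusted p = 0.00314), and the list had a median of -0.30. Its peptide transporter Tap1 had -0.73 (adjusted p = 0.249, and 0.0213 with the block). Lpl, lipoprotein lipase, was the call among 18 lipid droplet and uptake genes (1.45 ± 0.34, adjusted p = 0.0134), and it was lost without advanced mouse 3 (0.0666) or control mouse 2 (0.055).

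Among the lower genes, the test separated genes that moved in opposite directions in the fractions. Prex1 (chr2:166566345-166713832), a Rac exchange factor, fell from 34.7, 47.5, 50.4 and 52.4 CPM in control to 11.9, 12.2 and 17.6 CPM in advanced hepatocyte nuclei. In whole liver nuclei it rose from 65.2, 65.8, 66.3 and 72.3 CPM to 145, 158 and 178 CPM. No groups overlapped, and the log2 changes were -1.74 ± 0.24 and 1.25 ± 0.22 (interaction -2.99 ± 0.33, adjusted p = 1.11e-05). Prrx1 (chr1:163245119-163315145), a homeobox factor of fibroblasts and stellate cells, had 6.88, 11.1, 11.2 and 13.6 CPM in control and 1.45, 2.68 and 4.09 CPM in advanced hepatocyte nuclei. In whole liver nuclei it had 7.96, 8.18, 12.7 and 13.6 CPM in control and 17.1, 19.6 and 20.5 CPM in advanced mice (interaction -2.79 ± 0.42, adjusted p = 0.000247). Its level was alike in both fractions of the control mice, with log2 ratios of -0.21 to 0.45.

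Lpar3, a lysophosphatidic acid receptor, and Apol7c, an apolipoprotein L gene, also fell in hepatocyte and rose in whole liver nuclei (interactions -2.51 ± 0.48 and -2.51 ± 0.54, adjusted p = 0.00268 and 0.00718). The call of Apol7c was lost without advanced mouse 2 (interaction -1.67, adjusted p = 0.12). Mitf (chr6:97807058-98021358), a basic helix-loop-helix factor of lysosomal and pigment cell genes, moved by less, from 171 to 226 CPM in control to 134 to 189 CPM in advanced hepatocyte nuclei and from 169 to 216 to 275 to 332 CPM in whole liver nuclei (interaction -0.98 ± 0.19, adjusted p = 0.00352). Its hepatocyte groups overlapped, and its ratios did not.

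Other lower genes fell in hepatocyte nuclei with no change called in whole liver. Sox7 (chr14:63943706-63950732), a SOX factor of endothelial development, fell from 1.20, 1.38, 1.67 and 1.81 CPM to 0.0881, 0.255 and 0.255 CPM in hepatocyte nuclei. Whole liver nuclei had 1.64 to 1.92 CPM in control and 1.47 to 2.19 CPM in advanced mice, and these overlapped (interaction -2.87 ± 0.43, adjusted p = 0.000245). Dock8 (chr19:24999529-25202432), a Cdc42 exchange factor best known from leukocytes, had 212, 231, 260 and 262 CPM in control and 58.9, 109 and 110 CPM in advanced hepatocyte nuclei. Its whole liver level was 235 to 288 CPM in control and 220 to 296 CPM in advanced mice (interaction -1.39 ± 0.25, adjusted p = 0.00122). In control mice the log2 ratios of Sox7 ran from -0.64 to 0.11 and those of Dock8 from -0.15 to 0.00, so that hepatocyte and whole liver nuclei held similar levels.

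The largest part of the lower genes rose in whole liver nuclei alone or more steeply there. Myo18b, an unconventional myosin, and Efr3b, a plasma membrane scaffold, rose in whole liver nuclei (2.03 and 2.19 on the log2 scale) and had no call in hepatocyte nuclei (interactions -2.50 ± 0.43 and -2.61 ± 0.59, adjusted p = 0.00105 and 0.0108). Without advanced mouse 2 the call of Efr3b was lost (adjusted p = 0.0649). Tgfbr1, the TGF-beta receptor kinase, went from 194 to 208 CPM to 217 to 363 CPM in hepatocyte and from 156 to 218 to 419 to 436 CPM in whole liver nuclei (interaction -0.87 ± 0.23, adjusted p = 0.0359). That call was lost without advanced mouse 2 or 3 (adjusted p = 0.188 and 0.205), without control mouse 3 or 4 (0.0546 and 0.0647) under both other scalings (0.0552 and 0.0649) and in the 14 libraries alone (0.0561). Kcnc2, a potassium channel, rose in both fractions (1.70 and 4.53 on the log2 scale, interaction -2.84 ± 0.69, adjusted p = 0.0199), and its call was lost without advanced mouse 2 or 3 (0.0609 and 0.0601) or control mouse 2 or 3 (0.0952 and 0.0769) and in the 14 libraries alone (0.0636). Nr4a3, an orphan nuclear receptor, had 0 to 0.764 CPM in control hepatocyte nuclei and the largest negative interaction among the named genes (-3.57 ± 0.98, adjusted p = 0.0422). It was lost without advanced mouse 1, 2 or 3 (0.0758, 0.202 and 0.0708) and without control mouse 2 or 4 (0.109 and 0.582). It was also lost with RLE scaling (0.0507), TMM within each fraction (0.0515), the 14 libraries alone (0.0688) and voom (0.0508). Grid1, a glutamate receptor subunit, fell in both fractions, with log2 changes of -3.98 in hepatocyte and -1.47 in whole liver nuclei (interaction -2.51 ± 0.51, adjusted p = 0.00483).

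Of the markers of endothelial, immune and mesothelial cells, 1 passed, in lists as small as these against 2.83% higher and 0.984% lower of all genes. Of 18 endothelial markers none was higher and 1, the receptor kinase Tie1, was lower (-1.0 ± 0.25, adjusted p = 0.0207), with a list median of -0.22. The call of Tie1 was lost without each of the 3 advanced mice (0.0566, 0.203 and 0.0742 for mouse 1, 2 and 3), without control mouse 1 or 3 (0.0878 and 0.111) and with TMM scaling within each fraction (0.0522). The sinusoidal receptor Stab2 had 0.12 ± 0.26 (adjusted p = 1.0). Kupffer cell markers had no call of 13 and a median of 0.04, with Clec4f at 0.04 and Adgre1 at 0.34. The 17 lymphocyte markers (median 0.15, or -0.19 with Cd8b1 at its bound), the 2 neutrophil markers (-0.79) and the 3 mesothelial markers (1.04) had none. With the block 1 Kupffer marker was higher, Csf1r (1.06, adjusted p = 0.0313), and 1 lymphocyte marker lower, Cd4 (-1.90, adjusted p = 0.0346), both named after their values were seen. That fit called 6.13% of all genes higher and 3.33% lower.

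Of the 10 recruited macrophage markers 9 rose in each fraction (median log2 change 4.79 in hepatocyte and 4.97 in whole liver nuclei). Of all genes tested 28.4% and 33.6% rose in these fractions. Their summed level went from 3.79 to 5.35 CPM in control to 47.8 to 63.7 CPM in advanced hepatocyte nuclei, and from 12.7 to 14.4 to 225 to 258 CPM in whole liver nuclei. None was called in the interaction (median interaction -0.37, or -0.50 with Trem2 at its bound), and with the block Lgals3, galectin-3, was higher (1.44, adjusted p = 0.0194), a gene named after its values were seen. Trem2, a lipid-sensing receptor of these cells, was at 0 in the 4 control hepatocyte libraries and was at least 14.5-fold higher in the advanced ones, taking 3 counts over the group as the floor. The glycoprotein gene Gpnmb had -1.27 (adjusted p = 0.96). The part that macrophage RNA in hepatocyte libraries plays in any called gene was not tested.

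Collagens and matrix genes also rose in both fractions, 27 of 30 in hepatocyte and 28 of 30 in whole liver nuclei (28.4% and 33.6% of all genes rose), with a median interaction of -0.42. In advanced mice their median log2 hepatocyte to whole liver ratio was -3.08 to -2.75, beside -3.82 to -3.11 for the endothelial markers. The part that RNA of other cells in hepatocyte libraries plays in the hepatocyte rise was not tested. Col1a1 went from a mean of 0.421 ± 0.131 to 5.67 ± 0.84 CPM in hepatocyte and from 3.42 ± 1.09 to 60.9 ± 27.7 CPM in whole liver nuclei (interaction -0.42 ± 0.53, adjusted p = 1.0). Col3a1 had -0.63 ± 0.38 (adjusted p = 0.734) and the stellate cell markers Pdgfrb and Des -0.52 and -1.63 (adjusted p = 0.697 and 0.262). Across the alternatives, which include subtraction of the endothelial share, Col3a1 ran from -2.505 to -0.254. Pdgfrb ran from -3.088 to -0.274 and Des from -7.029 to -1.332, and Des was called in 1 alternative. The single call in this list of 30, which does not hold Lama4 or Lama5, was the metalloproteinase inhibitor Timp2 (1.53 ± 0.35, adjusted p = 0.0121), lost without advanced mouse 2 or 3 or control mouse 3 (0.0586, 0.064 and 0.092). Thbs1, a matricellular activator of TGF-beta, had 2.51 ± 0.77 (adjusted p = 0.0818, and 0.041 with the block). The block gave 2 higher and 2 lower matrix genes, against 6.13% higher and 3.33% lower of all genes.

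**Figure D4:**
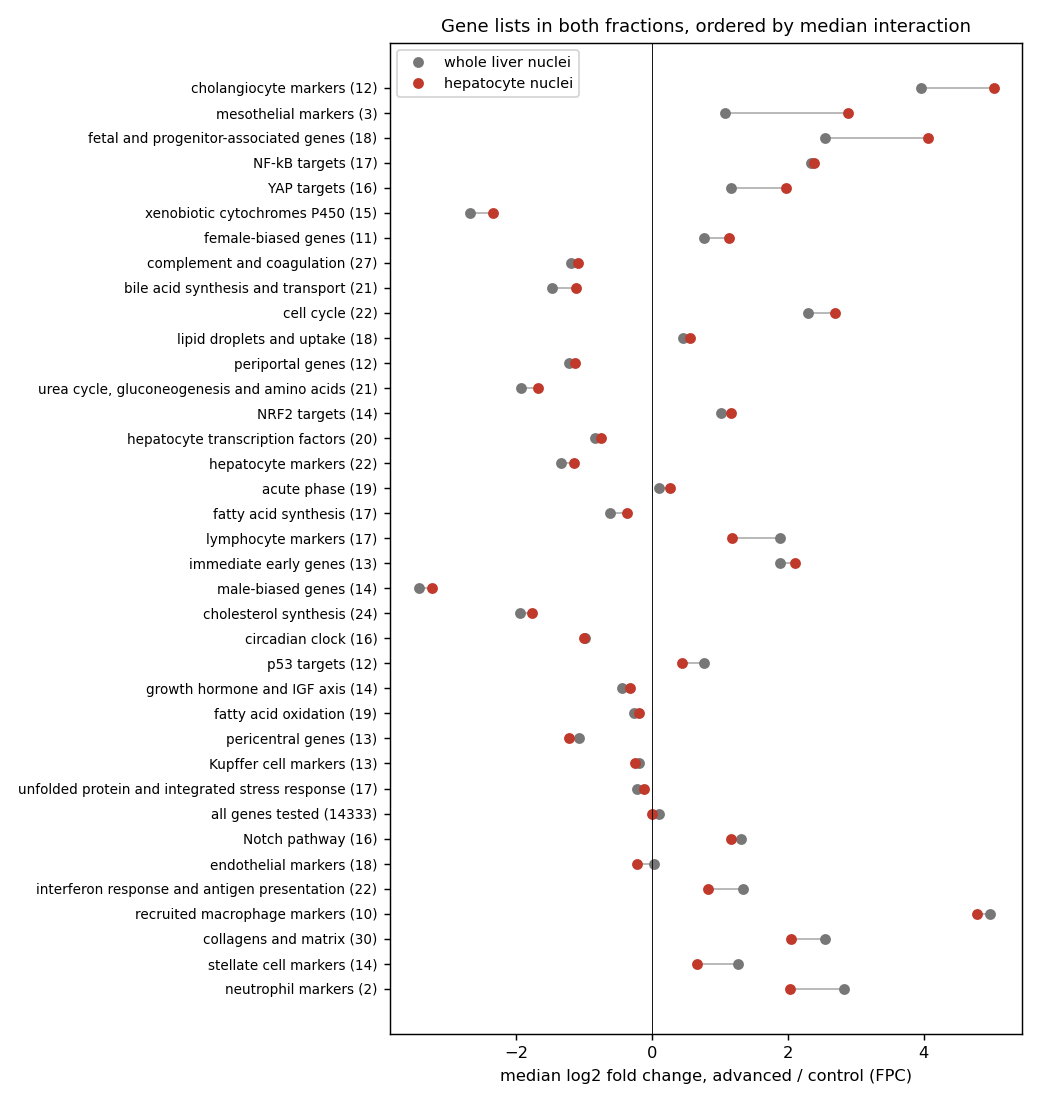
Median log2 fold change from control to advanced FPC mice in hepatocyte nuclei (red) and whole liver nuclei (grey) for each gene list, with the number of genes tested, ordered by the median interaction. Cholangiocyte markers (5.03 and 3.96) and progenitor-associated genes (4.07 and 2.55) had the medians given, with 3 of 12 and 5 of 18 genes called in the interaction, and most lists of hepatocyte function lie with both points close together.

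Genes of hepatocyte function changed by nearly the same amount in both fractions. Of 22 hepatocyte markers, 17 fell in hepatocyte and 19 in whole liver nuclei (medians -1.14 and -1.34), where 23.7% and 21.7% of all genes fell. None of these markers was called in the interaction, and 20 of 22 interactions were positive with a median of 0.18. Alb, albumin, had 1946 to 3823 CPM in control and 1386 to 2186 CPM in advanced hepatocyte nuclei, and 2193 to 3830 and 1179 to 2061 CPM in whole liver nuclei (interaction 0.17 ± 0.39, adjusted p = 1.0). Its interaction with the block was 0.20 ± 0.09 (adjusted p = 0.236), a smaller error. The hepatocyte factor Hnf4a had 0.18 (adjusted p = 1.0). Small positive medians without any call were found for bile acid synthesis and transport (0.28 over 21 genes), xenobiotic cytochromes P450 (0.31 over 15), the urea cycle, gluconeogenesis and amino acids (0.22 over 21), complement and coagulation (0.28 over 27) and hepatocyte transcription factors (0.20 over 20). With the block 5 of the 22 hepatocyte markers were called higher. So were 4 of the 21 bile acid genes, 1 of the 15 cytochromes, 5 of the 21 urea cycle and amino acid genes, and 6 of the 27 complement genes. Among the 20 transcription factors it gave 4 higher and 1 lower, against 6.13% higher and 3.33% lower of all genes tested in that fit.

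Cholesterol synthesis fell uniformly in both fractions, 24 of 24 genes in each (median log2 change -1.76 and -1.94), where 23.7% and 21.7% of all genes fell. It had a median interaction of 0.12 with no call. Msmo1, a methylsterol oxidase, stood at 0.03 (adjusted p = 1.0). Fatty acid synthesis (0.17 over 17 genes) and oxidation (0.09 over 19), the acute phase (0.17 over 19), the unfolded protein response (0.03 over 17) and p53 targets (0.09 over 12) had no call. The growth hormone axis (0.09 over 14), the clock (0.10 over 16), male-biased (0.13 over 14) and female-biased genes (0.30 over 11), pericentral (0.09 over 13) and periportal genes (0.24 over 12), and immediate early genes (0.15 over 13, or 0.03 with Fosl1 at its bound) had none either. With the block, periportal genes had 4 higher and 1 lower of 12, female-biased genes 2 higher of 11, and fatty acid synthesis, fatty acid oxidation, acute phase, male-biased and pericentral genes 1 higher each. That fit called 6.13% of all genes higher and 3.33% lower. Hsd3b5, a male-biased steroid dehydrogenase, had log2 changes of -10.38 in hepatocyte and -9.83 in whole liver nuclei (interaction -0.55, adjusted p = 1.0). Cell cycle genes rose in both fractions, 21 of 22 in each, where 28.4% and 33.6% of all genes rose. They had no call in the interaction (median 0.27, Mki67 1.31 ± 0.46, adjusted p = 0.163) and 3 higher genes with the block (6.13% of all genes).

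Further genes chosen for their known roles had no call. The bile acid enzymes Cyp7a1 and Cyp8b1 had 0.45 and -0.17, Cyp2e1 0.10, the lipid genes Cd36, Cidec and Fabp4 0.27, 0.25 and 0.74, and the hepatokine Fgf21 0.21. The cell cycle inhibitor Cdkn1a had 0.88, lipocalin Lcn2 1.22, Kdr -0.25 and Bmp2 0.98. Glis2, a zinc finger factor, rose from 0.380 to 1.15 CPM to 10.8 to 29.9 CPM in hepatocyte nuclei and from 2.0 to 3.11 to 20.0 to 23.3 CPM in whole liver nuclei. Its interaction of 1.78 ± 0.50 lay just past the threshold (adjusted p = 0.0504) and was called with the block (0.0265). The epithelial factor Elf3 rose by 4.15 and 4.37 on the log2 scale and had -0.22 ± 0.77 (adjusted p = 1.0).

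The 4 mild mice, which ate the same diet for the same time, gave 78 higher (0.544%) and 6 lower genes (0.0419%) in the same test, and 424 and 135 with the block. Without control mouse 1, 2, 3 or 4 the higher genes numbered 18, 11, 14 and 14. This test uses the same control libraries, so it is given beside the advanced values only. The 406 higher genes had a median ratio of -1.28 (41.1%) in mild mice, between the control and advanced values, and the 141 lower genes of -0.83 (56.4%). For Ptprt the log2 ratios ran from -2.77 to -2.42 in control, from -1.85 to -0.85 in mild and from 0.35 to 0.69 in advanced mice. For Prex1 they ran from -0.93 to -0.38, from -2.42 to -1.50 and from -3.86 to -3.04. Prrx1 differed from these, with -0.21 to 0.45 in control, -0.73 to 0.39 in mild and -3.66 to -2.30 in advanced mice. The endothelial share in hepatocyte nuclei was higher in the mild mice (12.4 to 24.5%) than in the other groups. Subtracting each mouse's share changed the mild counts from 78 higher and 6 lower to 95 higher and 161 lower. The cause of that shift was not tested.

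The mice of the other diet study, on a choline-deficient high-fat diet with defined amino acids (CDAHFD), had their own low-fat controls, and 3 advanced and 4 control mice of this 7-week study gave an independent set of values. That interaction called 519 genes higher (3.63%) and 947 lower (6.62%) of 14315 tested, 662 and 638 under RLE scaling, and 1054 (7.36%) and 1518 (10.6%) with the block. Fitted from its 14 control and advanced libraries alone, it gave 733 higher and 173 lower genes, with the median of all genes at 0.26, so which direction held more genes depends on the libraries fitted. Without either of 2 advanced CDAHFD mice it gave 308 and 561, or 334 and 551. Of the 406 genes higher under FPC, 391 (96.3%) had a positive value under CDAHFD, against 50.2% of all genes tested. Of these genes 194 were called higher there, 47.8% of the FPC list and 37.4% of the CDAHFD list. Of the 141 lower genes, 138 (97.9%) had a negative value, against 49.8% of all genes, and 84 were called lower, 59.6% of the FPC and 8.87% of the CDAHFD list. The median over the higher genes was 1.80 under FPC and 1.36 under CDAHFD, and over the lower genes -1.45 and -1.30. Endothelial marker RNA in the hepatocyte nuclei of CDAHFD mice was 7.04 to 11% of the whole liver level in control and 12.9 to 16.7% in advanced mice. So that share was higher with disease under this diet, unlike under FPC. Subtracting it gave 795 higher and 1335 lower genes under CDAHFD, and the cause of that shift was not tested.

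Most of the genes shown library by library above were also called in the same direction under CDAHFD. Ptprt had 2.40 ± 0.26 (adjusted p = 4.7e-06), Bmp6 2.38 ± 0.41, Rgs5 2.74 ± 0.58, Anxa2 2.36 ± 0.34 and Ptpn14 2.06 ± 0.52, all called. Prex1 had -2.04 ± 0.43, Dock8 -1.59 ± 0.21 and Prrx1 -4.73 ± 0.38, also called. The biliary genes Bicc1 (0.57 ± 0.47) and Glis3 (0.82 ± 0.40), the annexin gene Anxa3 (0.44 ± 0.43) and Sox7 (-0.93 ± 0.99) were not called under CDAHFD. The difference between the diets did not pass the test for these 4 genes (adjusted p = 0.829, 0.782, 0.404 and 0.63).

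**Figure D5:**
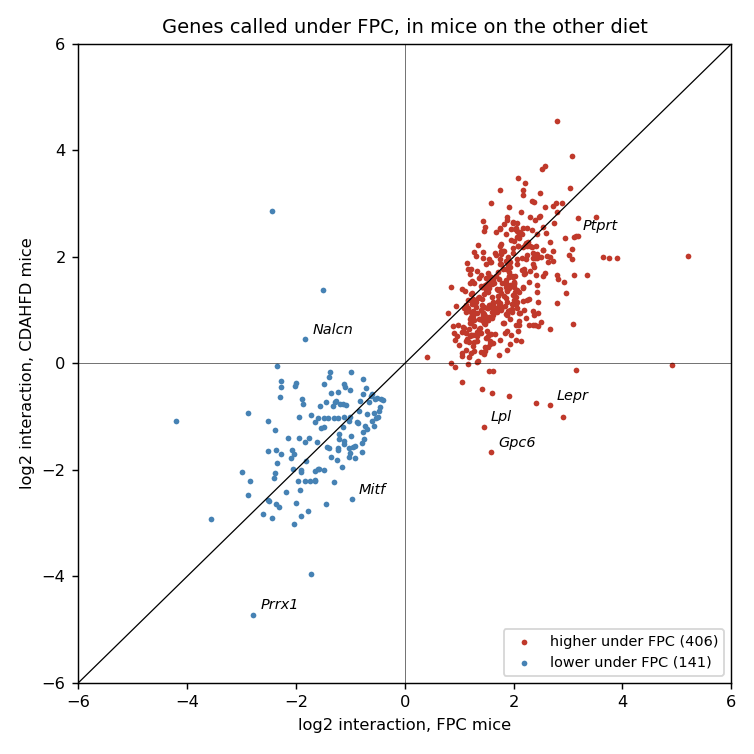
Log2 interaction in CDAHFD mice (vertical axis) against FPC mice (horizontal axis) for the 406 genes called higher (red) and the 141 called lower (blue) under FPC, with equality on the diagonal. Of the red points 391 lie above 0 and of the blue points 138 lie below 0, and Gpc6 and Lepr are red points that lie below 0.

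The interaction itself differed between the diets for 10 of 14627 genes, 9 with a more positive value under FPC (0.0615%) and 1 with a more negative value (0.00684%), and for 296 (2.02%) and 197 (1.35%) with the block. Of these 10, 4 were among the genes called under FPC, and Lepr, Gpc6 and Nalcn of the 4 were named after their values were seen. Lepr (chr4:101717407-101815354), the leptin receptor, had 0.950, 1.26, 1.49 and 2.13 CPM in control and 24.1, 38.4 and 48.4 CPM in advanced hepatocyte nuclei of the FPC study. Whole liver nuclei had 7.60 to 11.5 and 28.2 to 40.2 CPM, with control and advanced mice separate in each fraction. Its interaction was 2.66 ± 0.41 under FPC (adjusted p = 0.000349) and -0.79 ± 0.50 under CDAHFD (adjusted p = 0.363), a difference of 3.40 ± 0.68 (adjusted p = 0.03). Gpc6, a glypican, was the only gene called in opposite directions, 1.59 ± 0.36 under FPC and -1.67 ± 0.30 under CDAHFD (difference 3.22 ± 0.47, adjusted p = 0.000738). Nalcn, a sodium leak channel, was lower under FPC (-1.83 ± 0.32) and had 0.46 ± 0.39 under CDAHFD (difference -2.35 ± 0.49, adjusted p = 0.0432). Mitf was lower under both diets, less so under FPC (-0.98 against -2.55, difference 1.52 ± 0.29, adjusted p = 0.023).

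The hepatocyte part of these values can be set beside the authors' deposited table, which holds hepatocyte changes alone. The authors' deposited table gives a log2 change from control to advanced FPC of 3.08 for Ptprt, 4.43 for Rgs5, 5.40 for Anxa2, 4.69 for Lepr and -1.37 for Dock8. The fit described here gave 3.05, 4.40, 5.38, 4.66 and -1.38 for the same change. No whole liver change or interaction was read from that table.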

How the data were processed

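The authors deposited raw counts, whole numbers for 20105 RefSeq transcripts in 44 libraries, and a table of log2 fold changes between hepatocyte groups with adjusted p-values, per the file headers. The submitters' processing notes name build mm10, STAR 2.4.2a and DESeq2 1.24.0. The counting tool and its strand setting are not given in the sources used here. Per the labels' protocols the kit was stranded and poly-adenylated RNA was not selected. For 94.7% of genes in the deposited table the counted length equals the gene length, so intronic reads of nuclear RNA were counted, and CPM grows with gene length. Reads of overlapping genes or near-identical copies could be divided or shared. Symbols came from the authors' table (13147) or a RefSeq table (6879), and 79 transcripts have none.

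The 22 FPC libraries (control, mild and advanced, both fractions) were fitted together with edgeR 4.0.16 (R 4.3.3, limma 3.58.1): expression filter by group, TMM scaling, robust quasi-likelihood F-test, Benjamini-Hochberg adjustment across the 14333 genes kept, threshold 0.05. SE is the absolute log2 change divided by the root of F. Unless the block is named, SE and adjusted p come from the fit without it, which does not use the pairing. CPM values use TMM-scaled totals, and per-mouse ratios add 0.1 CPM. Endothelial shares are the level of 18 markers in hepatocyte over whole liver nuclei. The CDAHFD libraries were fitted alike, and all 44 for the difference between diets. Between replicates the chi-square was 42.9 to 124.5 times its degrees of freedom, well over counting noise, so the spread between mice sets the precision, and intervals for genes with few counts cover counting error only. Animal numbers mark both libraries of a mouse: over 11367 genes, deviations from group means correlated by 0.41 to 0.82 within all 11 FPC mice, highest with the mouse's own partner in each. The scripts were tested on simulated data.

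The contrast, 36 gene lists (574 genes, 555 tested) and the naming rule were chosen with earlier results of these data known. The rule named the 10 largest called changes per direction with at least 1 CPM and ratios that did not overlap, 30 genes of known role, the 2 lowest p per list with a call, 4 genes per direction with opposite changes, and the 3 called genes per direction with the most counts (72 genes). Alternatives were the mouse block, RLE scaling (DESeq2's size factors), TMM within each fraction, no or a stricter low-count filter, the 14 libraries alone, DESeq2 1.42.0, limma voom with mouse as a random effect, subtraction of the endothelial share, and leaving out each mouse. The values of 1 listed gene are not reported here.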

Additional observations from a re-analysis of the deposited data

Results flagged for a closer look

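In a group of 4 control mice a value was marked where its gap to the nearest other value, divided by the range of the 4 values, exceeded Dixon's 95% critical value. Chance alone gives this in about 1 of 20 groups. The ratios of all 72 named genes and the CPM of genes printed above were screened, so chance alone would mark some of them. By this measure control mouse 1 had a low hepatocyte to whole liver ratio of Adcy8 (log2 -2.61, the others -1.24 to -1.0) and a high one of Pdgfrb (-2.33, the others -3.10 to -3.01). Control mouse 4 had a low ratio of Prex1 (-0.93, the others -0.46 to -0.38), and control mouse 3 a low ratio of Des (-3.42, the others -1.77 to -1.60) and a high whole liver level of Prex1 (72.3 CPM, the others 65.2 to 66.3). The calls of Adcy8 and Prex1 were kept without any of these mice.

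Between the diets, the test of the difference (FPC minus CDAHFD interaction) passed for 10 genes. Besides Lepr (3.40), Gpc6 (3.22), Nalcn (-2.35) and Mitf (1.52), these were Igf2bp2 (3.64), an RNA-binding protein gene, Arhgap10 (2.40), Lrp12 (1.53), Ppm1h (1.35), Rnf128 (1.05) and Rnf149 (1.01). In these last 6 genes the FPC interaction did not pass the test. Igf2bp2 had 0.43 ± 0.47 under FPC and -3.25 ± 0.36 under CDAHFD, and Arhgap10 -0.72 ± 0.32 and -3.17 ± 0.31. Rnf128 and Ppm1h had 0.37 and 0.21 under FPC and -0.73 and -1.19 under CDAHFD. Lrp12 and Rnf149 had -0.33 and -0.51 under FPC and -1.91 and -1.56 under CDAHFD.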

How the results depend on the processing

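No gene called in the FPC advanced interaction had the opposite sign in any of the 16 alternatives. Of the 406 higher and 141 lower genes, the fits without 1 mouse kept 285 to 346 and 67 to 110. Their counts were 290 to 383 higher and 71 to 123 lower, with 92 lower genes without advanced mouse 1 and 71 without advanced mouse 2. The replicate block gave 878 and 477, voom 661 and 517, and subtraction of the endothelial share 285 lower genes. TMM scaling within each fraction moved the median of all genes to 0.12, kept all 406 and 99 of the 141 genes, and gave 464 higher and 99 lower. Of 38 named genes with a call, 25 kept it in every alternative and 13 lost it at least once. None of the 38 lost it with the block, and the fits without 1 mouse did not use the block.

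The mild interaction (78 higher, 6 lower) gave 424 and 135 with the block, 186 and 23 with DESeq2, 11 lower with no filter, 31 with the stricter filter, 161 with the share subtracted, and 11 to 80 higher and 2 to 21 lower without 1 mouse. The CDAHFD interaction (519 and 947) gave 1054 and 1518 with the block, 974 higher with DESeq2, 976 and 1687 with voom, 795 higher with the share subtracted, 733 higher and 173 lower from its 14 libraries alone, and 308 to 507 higher and 551 to 875 lower without 1 mouse. The difference between diets (9 and 1) gave 296 and 197 with the block and 20 and 11 with DESeq2. The cause of these shifts was not tested.

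Reversed signs were found in 8 genes, all without a call. Sox9 had -0.049 with the block, -0.18 with voom, and -0.16 to 0.30 without 1 mouse. Trem2 had -0.91 with voom and -1.44 with the share subtracted. Clec4f had -0.048 with the block, -0.006 with the stricter filter, -0.31 with voom, and -0.078 to 0.19 without 1 mouse. Msmo1 had -0.00 with the block, -0.03 with the stricter filter, and -0.078 to 0.13 without 1 mouse. Fgf21 had -0.035 with the block and -0.053 with voom. Cyp8b1 had 0.053 with voom. Without 1 mouse Cyp8b1 had -0.50 to 0.36, Elf3 -0.58 to 0.074 and Hsd3b5 -0.87 to 0.03. With 3 against 4 mice, genes at few counts in control hepatocyte nuclei have wide errors, and a missing call there shows no absence of a difference.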
